A study of Mus musculus with 16 samples.

Results

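Kidneys of mice given cisplatin together with nicotinamide mononucleotide (NMN) were compared with kidneys of mice given cisplatin without it. The members are all genes of the table in 8 libraries, 4 of each group, out of 16 libraries in the series. Gene symbols were read from the last brackets of each entry's name, and 1 entry without them was named by its identifier. This gave 23935 symbols, and 12960 of them passed the filter on low values. The filter asks for 1 TPM or more in 4 or more of 16 libraries. The libraries hold total RNA of whole kidney from mice labelled WT. Cisplatin with NMN and cisplatin with NR (nicotinamide riboside) are 2 groups in which a precursor of NAD was injected ahead of cisplatin, cisplatin is the drug without a precursor, and PBS, phosphate-buffered saline, is the group without the drug. Kidneys were taken 3 days after cisplatin, so every group but PBS shares the drug and that interval. The sources used here do not give strain, age, doses or the number and route of injections. Whether the samples of a group are separate animals is not in the labels. A p-value then measures only the spread among these samples, which may be technical.

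Cisplatin is a platinum drug used against tumours, and its dose is limited by injury to the kidney. Cells of the proximal tubule, the first nephron segment after the glomerulus, take it up through organic cation transporters, and the DNA crosslinks that it forms activate p53 and lead to cell cycle arrest or cell death. Proximal tubule cells burn fatty acids in many mitochondria and depend on NAD, which carries electrons in metabolism and is consumed by sirtuins, PARPs and CD38. NMN is the last intermediate before NAD in the salvage route. Cells make it from nicotinamide with Nampt or from NR with the kinases Nmrk1 and Nmrk2, and Nmnat enzymes convert it to NAD.

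The values are TPM, transcript abundances divided by gene length and scaled so that a library has a set total. Read depth cannot be recovered from them, and the depth behind a value is unknown. The listed TPM of a library summed to between 860428 and 903678, and 11535 to 12549 genes reached 1 TPM. In a principal component analysis the first component, with 63.5% of the variance, held the cisplatin libraries between 73.5 and 83.6, the NMN libraries between -29.2 and -4.2 and the PBS libraries between -58.5 and -47.7. Defining markers of kidney were present in all 8 libraries, among them the urinary protein gene Umod and the water channel gene Aqp2. The Y-linked gene Ddx3y measured 10.5 ± 1.88 TPM with cisplatin and 12.5 ± 1.25 TPM with NMN (SD, n = 4 each), while Xist stayed under the minimum. Cisplatin libraries 1 and 3 had the lowest weights of the 8 libraries (0.675 and 0.679) in a fit that weights libraries by how well they match their group. In whole tissue, fewer cells of a type and less RNA per cell cannot be told apart. Of 1399 genes of the lists or the naming rule with 1 position in GENCODE vM21, 432 have an exon that overlaps an exon of another gene. Whether counting used strand is not stated in the sources used here, so overlapping genes on opposite strands cannot be told apart.

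NMN with cisplatin gave a large difference from cisplatin without it. Of 12960 genes 6359 (49.1%) passed the test, 1954 higher (15.1%) and 4405 lower (34.0%) with NMN. The words rose and fell are used of genes that passed it (limma on log2(TPM + 1), adjusted p under 0.05). Values per library are in the order of replicates 1 to 4, and other values are mean ± SD over the 4 libraries of a group. At least 2-fold changes were 857 rises and 1341 falls. Groups did not overlap, with all 4 NMN libraries above or below all 4 cisplatin libraries, for 1742 genes that were higher (13.4%) and 4002 that were lower (30.9%), and 5383 genes were both called and without overlap. All tested genes had a median log2 change of -0.23, from which list medians are given as differences. Median-of-ratios scaling brought that median to -0.018 and gave 2888 genes higher (22.3%) and 3047 lower (23.5%), so that higher calls made up 48.7% of the calls in place of 30.7%.

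**Figure D1:**
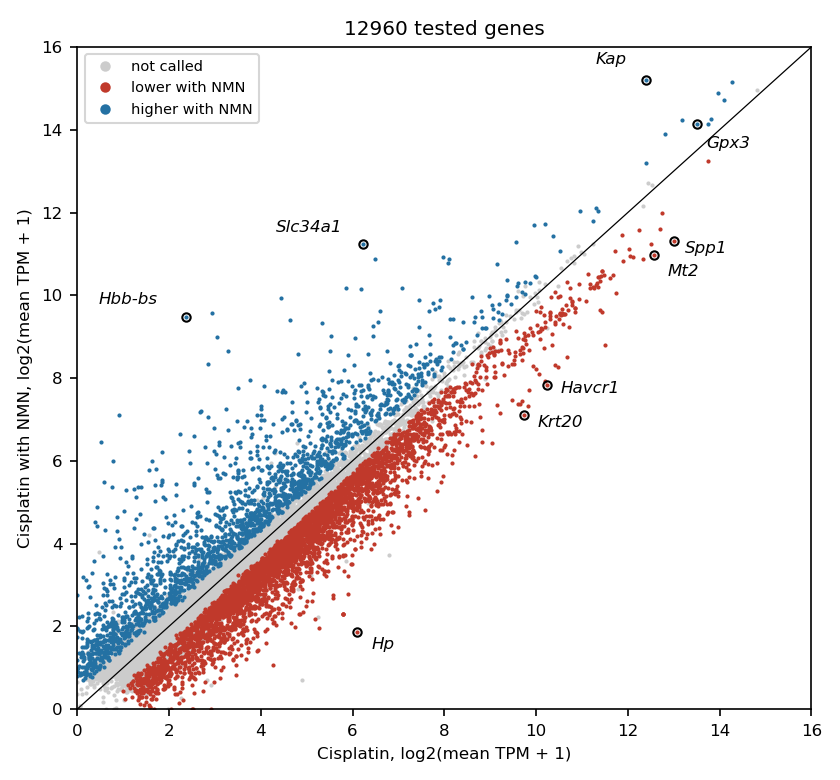
Mean TPM of 12960 tested genes with cisplatin (x axis) and with NMN (y axis), both as log2(mean TPM + 1). Blue points are genes called higher with NMN, red points genes called lower, grey points genes not called, and the line marks equal values. Circled genes are named in the text: Slc34a1, Hbb-bs and Kap lie far above the line and Hp, Krt20 and Havcr1 below it.

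Kap, the kidney androgen-regulated protein and one of the most abundant mRNAs of male mouse kidney, measured 3965, 6820.5, 4391 and 6344 TPM in cisplatin libraries 1 to 4 and 41879.6, 33819, 36287 and 37936 TPM in NMN libraries 1 to 4. PBS libraries held 50351, 45936, 44593 and 42424 TPM. Every NMN library lay far above every cisplatin library and below every PBS library. Gpx3, the secreted glutathione peroxidase made by the kidney, measured 11390.0, 10942, 12263 and 12088 TPM with cisplatin and 16968, 19891, 16944 and 18969.9 TPM with NMN (log2 change 0.64 ± 0.10, SE). With quantile scaling this change was 0.00 and not called (adjusted p = 0.982). Klk1, the tissue kallikrein, rose from 995 ± 246 to 3297 ± 581 TPM and S100g, the calcium-binding protein calbindin-D9k, from 1169 ± 207 to 3360 ± 599 TPM. Miox, which opens inositol for catabolism, rose from 89 ± 14.5 to 1869 ± 200 TPM. Acy3, Ass1, which makes argininosuccinate for arginine synthesis, the fatty acid transport and activation gene Slc27a2 and Cyp4b1 went from means of 250, 269, 564 and 275 to 1956, 1768, 1727 and 1874 TPM.

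Among the 15 largest falls in TPM, Spp1, the secreted phosphoprotein osteopontin, measured 8046, 8827, 6871 and 8997 TPM with cisplatin, 2365, 2509, 3625 and 1703 TPM with NMN and 406, 615, 539 and 485 TPM with PBS. NMN libraries lay between the other groups without overlap, with replicate 4 lowest and replicate 3 highest. The metallothionein genes Mt2 and Mt1, which encode metal-binding proteins, fell from 6091 ± 1073 to 2016 ± 662 and from 5816 ± 883 to 2404 ± 665 TPM. Fth1, the ferritin heavy chain that stores iron, fell from 13795 ± 1142 to 9659 ± 1350 TPM. The calcium-binding genes S100a6, S100a11 and S100a10 went from means of 2899 to 442, 3417 to 1056 and 2689 to 797 TPM. Chd9, a chromatin remodeller, measured 4564, 5306, 4637 and 6012 TPM with cisplatin and 1959, 1943, 2322 and 1344 TPM with NMN. Cep85, a centrosome protein gene, measured 3166, 2237, 2858 and 2861 TPM with cisplatin and 704, 763, 997 and 626 TPM with NMN. Their PBS means were 893 and 111 TPM, and in GRCm38 an exon of Chd9 overlaps Gm45641 on the other strand.

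The 25 largest rises by log2 change included all 4 tested globin genes. Dnase1, a secreted nuclease, rose from 24 ± 3.58 to 674 ± 161 TPM (log2 change 4.73 ± 0.17), Slc22a22 from 0.68 ± 0.443 to 40.6 ± 9.77 TPM, and Ugt3a1, a sugar-conjugating enzyme, from 5.36 ± 2.28 to 143 ± 41.8 TPM. G6pc, the last enzyme of gluconeogenesis, measured 2.68, 4.42, 3.49 and 4.26 TPM with cisplatin and 96.9, 94.8, 82.7 and 123 TPM with NMN, with no overlap. Nat8f6 and Nat8f3 (N-acetyltransferase family), Slc22a28 and Slc22a30 (organic anion transporter family), Ugt2b38 and Cyp2d12 belong to families of near-identical copies, among which the split of reads is uncertain. Pfn3 rose from 5.52 ± 1.79 to 147 ± 62.8 TPM, but its exon overlaps that of Slc34a1 on the opposite strand, so the reads of these genes cannot be told apart. The further rises among the 25 largest were Mep1b, a brush border protease, Spp2, Akr1c21, and Slc12a3, Acmsd and Slc22a8, which are described with their lists.

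Among the 25 largest falls, Hp, the haemoglobin-binding protein haptoglobin, measured 78.3, 50.8, 91.2 and 51.2 TPM with cisplatin and 2.14, 6.08, 1.59 and 0.68 TPM with NMN. Tert, the catalytic subunit of telomerase, measured 45.2, 28.7, 46.4 and 29.3 TPM with cisplatin, 2.63, 3.26, 5.37 and 0.42 TPM with NMN and 0.57, 0.97, 0.33 and 0.05 TPM with PBS. The NMN libraries of both genes reached down into the range of PBS. Rnu3b1, a copy of the U3 small nucleolar RNA of ribosome processing, measured 57.2, 38.5, 89.7 and 32.8 TPM with cisplatin, was listed at 0 in NMN libraries 1, 3 and 4 and at 15.6 TPM in NMN library 2. Its copies are near-identical, so the split of reads among them is uncertain. Slc14a2, a urea transporter, fell from 18.3 ± 9.97 to 1.08 ± 0.953 TPM and Plat, tissue plasminogen activator, from 522 ± 138 to 85.3 ± 51.1 TPM. Slc4a11 fell from 58.7 ± 1.53 to 8.29 ± 3.06 TPM and the scaffold gene Akap12 from 150 ± 26.4 to 25 ± 13.4 TPM. Hmga1, an architectural chromatin protein, fell from 903 ± 135 to 158 ± 76.1 TPM. Arg2, the mitochondrial arginase, fell from 127 ± 32.6 to 20.1 ± 8.94 TPM and the aldo-keto reductase gene Akr1b8 from 227 ± 40.6 to 37.9 ± 17.7 TPM. Serpina10, Lrg1, Sh2d5, Gprc5a, Atg9b and Sbsn had log2 changes of -2.96, -2.99, -2.71, -2.59, -2.61 and -2.58. Retn and Cidec, genes of fat cells, are described with the fat genes.

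**Figure D2:**
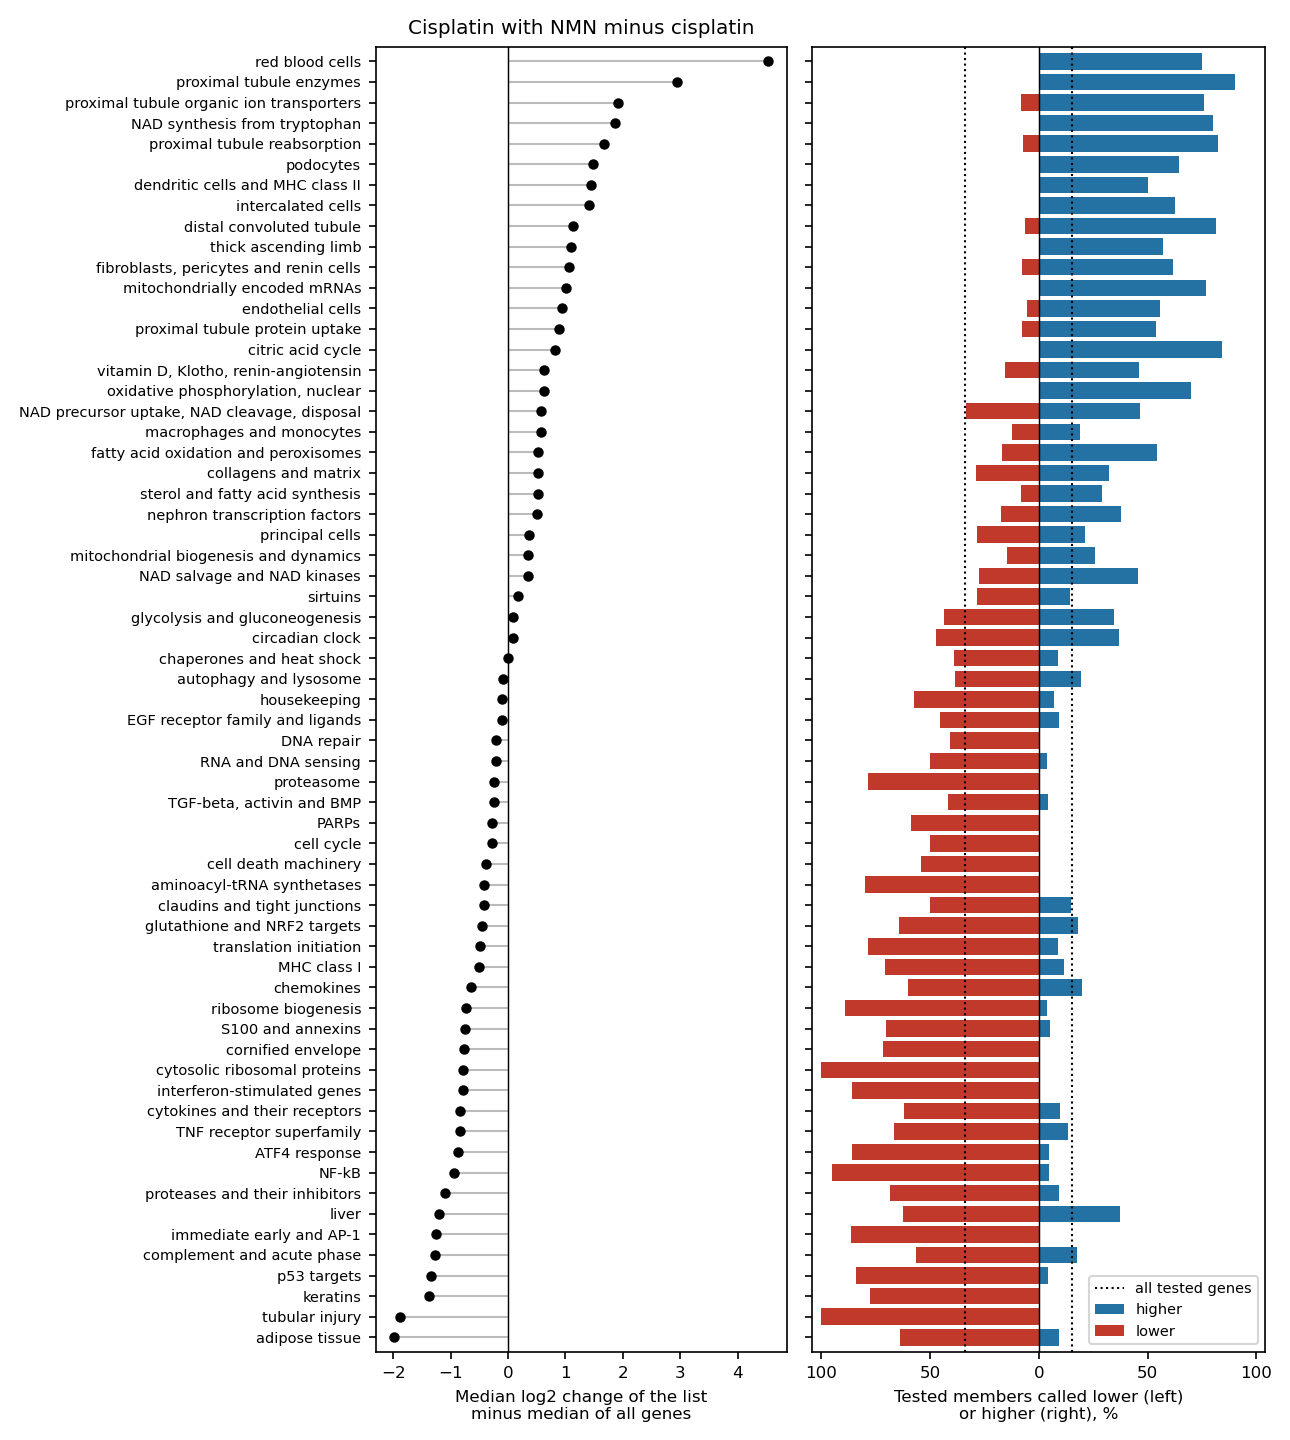
Gene lists with at least 7 tested members, ordered by median. Left, the median log2 change (cisplatin with NMN minus cisplatin) minus that of all genes; right, the percent of tested members called lower (red) or higher (blue), with dotted lines at the 34.0% and 15.1% of all tested genes. Red blood cell and proximal tubule lists are at the top, and the fat, tubular injury and keratin lists at the bottom.

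Genes of tubular injury were all lower with NMN. All 25 tested members fell, and their median lay -1.88 from that of all genes; without cisplatin libraries 1 and 3 the count was 24. Havcr1, the kidney injury molecule KIM-1 of damaged proximal tubule cells, measured 1256, 1117, 1224 and 1219 TPM with cisplatin and 301, 181, 308 and 122 TPM with NMN (log2 change -2.49 ± 0.28, adjusted p = 1.34e-06). Lcn2, the iron-siderophore carrier NGAL, measured 1279, 1391, 1364 and 1656 TPM with cisplatin and 228, 275, 531 and 186 TPM with NMN. The groups did not overlap for either gene, and NMN libraries 3 and 4 were the highest and the lowest for Lcn2 and for Havcr1. With PBS, Havcr1 measured 0.13, 1.61, 0.16 and 0.63 TPM and Lcn2 0.41, 3.7, 1.3 and 1.46 TPM. Plin2, which coats lipid droplets, fell from 1179 ± 137 to 241 ± 69 TPM.

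The NMN libraries kept an order among themselves in these genes. Replicate 4 was the lowest NMN library for 20 of the 25 injury genes and replicate 3 the highest for 19, where over all 12960 genes replicate 4 was lowest for 28.5% and replicate 3 highest for 36.8%. For p53 targets replicate 4 was lowest in 17 of 25 and replicate 3 highest in 21, and for genes of proximal tubule enzymes replicate 4 was highest in 22 of 30. These genes share their libraries and are not independent, and the labels give nothing that sets replicates 3 and 4 apart. On the first principal component replicate 4 lay at -29.2, the nearest of the 4 to PBS, and replicate 3 at -4.2.

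**Figure D3:**
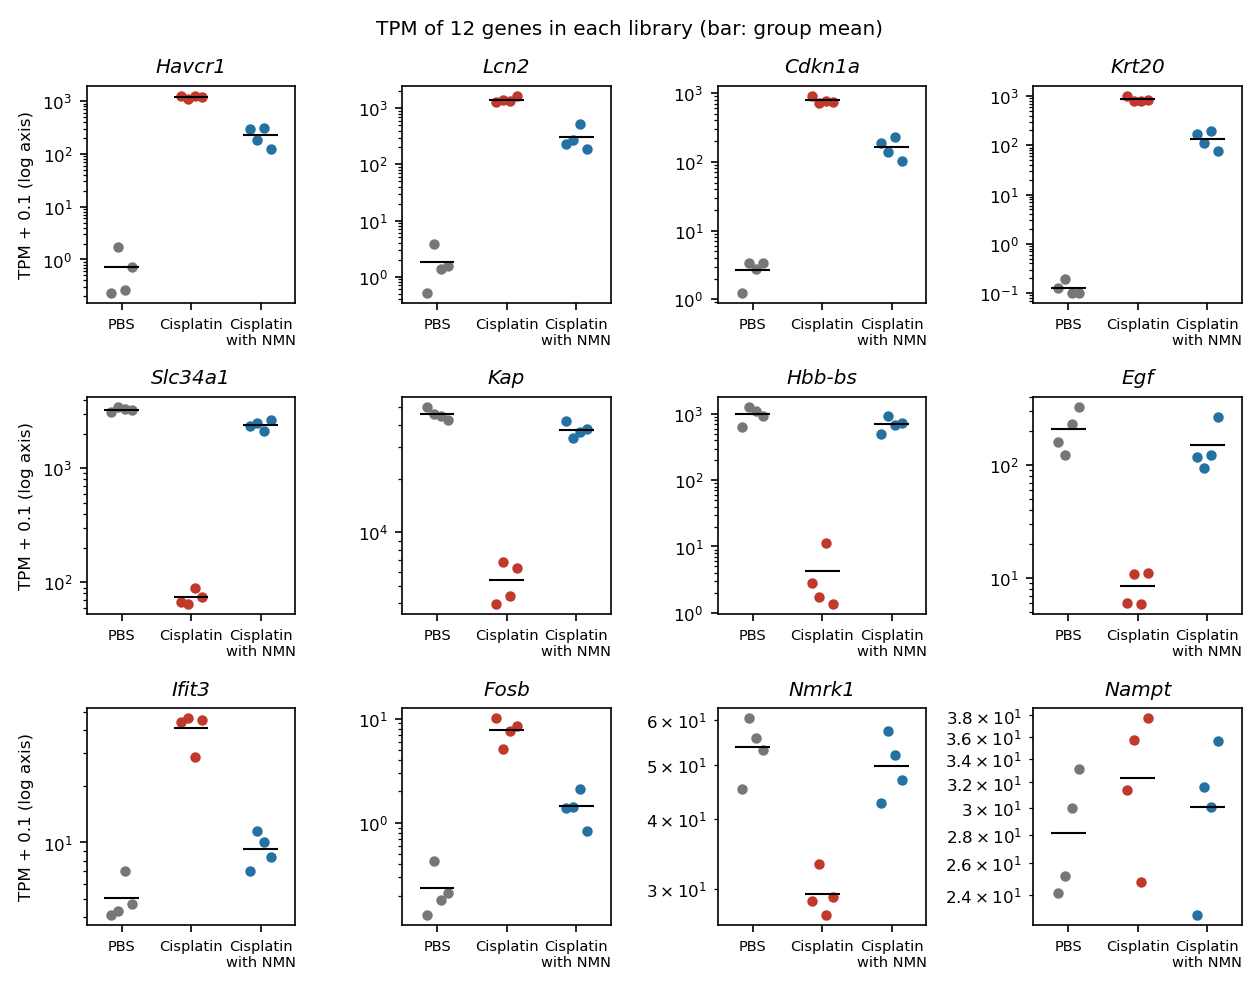
TPM plus 0.1 on a log axis for 12 genes in the 4 libraries each of PBS (grey), cisplatin (red) and cisplatin with NMN (blue); bars are group means. Injury genes with NMN lie between PBS and cisplatin, Slc34a1, Kap, Hbb-bs and Egf lie closer to PBS than to cisplatin, and Nampt overlaps in all 3 groups.

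Targets of p53, the factor that responds to DNA damage, were lower in 21 of 25 cases, with Sesn1 the 1 rise (from 3 ± 0.739 to 6.04 ± 0.498 TPM), and their median lay -1.35 from that of all genes. Cdkn1a, the cell cycle inhibitor p21, measured 909.8, 727, 761 and 734 TPM with cisplatin, 188, 139, 231 and 101 TPM with NMN and 1.13, 3.33, 2.68 and 3.23 TPM with PBS. Pmaip1, the death-promoting BH3 protein NOXA, fell from 51.1 ± 10.7 to 11.8 ± 2 TPM, and Trp53inp1 from 56.9 ± 6.2 to 18.4 ± 2.34 TPM. Mdm2, the ubiquitin ligase that degrades p53, measured 216, 166, 167 and 168 TPM with cisplatin and 53.6, 59.2, 61.2 and 36.1 TPM with NMN, and Sesn2, a stress-induced regulator of growth signalling, fell from 62.8 ± 5.78 to 23.9 ± 2.83 TPM. Every NMN library lay below every cisplatin library for these genes. The 250 bases before the RefSeq start of Mdm2 (chr10:117710759-117711008, minus strand, GRCm38.p6, 5′ to 3′) are shown. Capitals mark the match to the p53 half-site consensus.
Mdm2: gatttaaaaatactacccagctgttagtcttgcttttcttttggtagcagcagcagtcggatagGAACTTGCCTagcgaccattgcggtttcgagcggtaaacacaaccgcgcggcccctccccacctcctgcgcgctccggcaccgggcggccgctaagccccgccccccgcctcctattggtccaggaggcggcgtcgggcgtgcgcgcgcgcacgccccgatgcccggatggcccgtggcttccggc
The match begins 186 bases before the start, and a match of letters is no evidence that p53 binds or acts there. Sesn2 held none in its window of the same length. Among 17 p53 targets with an entry in the RefSeq promoter table, 6 (35.3%) held such a half-site on either strand, compared with 7.18% of 27025 promoters of the same length. Other lists reached like shares, 33.3% of 12 macrophage and monocyte genes and 30.0% of 10 genes of intercalated cells.

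DNA repair, the cell cycle and cell death showed fewer calls. Of 27 tested repair genes 11 fell (6 without cisplatin libraries 1 and 3), led by the nucleotide excision gene Ercc5 (from 24.2 ± 0.959 to 10.7 ± 2.1 TPM). Ercc1 fell from 287 ± 72.1 to 60.7 ± 27.8 TPM, and its exons overlap those of Cd3eap on the other strand. Of 22 cell cycle genes 11 fell, among them Ccnd1, the cyclin of the exit from rest (from 147 ± 11.1 to 53.8 ± 5.83), and Rrm2, a subunit of ribonucleotide reductase (from 10.7 ± 0.457 to 3.4 ± 0.765). Of 24 genes of the death machinery 13 fell, including both killers and protectors of the BCL2 family. The killer gene Bak1 fell from 32.8 ± 3.3 to 11.4 ± 2.33 TPM, and the protector genes Bcl2l1 and Mcl1 fell from 201 ± 11.6 to 81.5 ± 12 and from 85.9 ± 4.41 to 49.8 ± 4.23 TPM. None of these 3 lists had a member called higher by limma, though median-of-ratios scaling gave 4 higher among the death genes and the fit without cisplatin library 1 gave 1. Of all tested genes 34.0% fell.

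Genes of a simple, stressed or stratified epithelium were lower with NMN. Of 9 tested keratins 7 fell, and Krt20 measured 1006, 788, 805 and 813 TPM with cisplatin and 168, 109, 195 and 75.2 TPM with NMN, against 0.03 ± 0.0424 TPM with PBS. Krt8 and Krt18, the keratin pair of simple epithelia, fell from 592 ± 23.6 to 142 ± 30.9 and from 241 ± 14.4 to 43.9 ± 10.6 TPM. Of 14 genes of the cornified envelope of skin 10 fell, among them Sprr1a (from 923 ± 89.2 to 208 ± 46.9 TPM), Crct1 (from 118 ± 7.43 to 36.3 ± 8.93) and the plakin gene Ppl. In the S100 and annexin list 14 of 20 fell and S100g rose, and Anxa2 fell from 803 ± 45.2 to 164 ± 49.9 TPM. Krt7, Krt8, Krt18, Krt19, Krt20, Anxa1, Anxa2 and Anxa3 are also in the tubular injury list. The counts of these lists are thus not independent. Claudins, the pore and barrier proteins of tight junctions, went both ways, with 10 of 20 lower and 3 higher. Of all tested genes 34.0% fell and 15.1% rose, so the rises in this list were no more frequent than over all genes. Cldn1, Cldn4 and Cldn3 fell from 65.6 ± 9.29 to 13.6 ± 4.29, from 265 ± 67.6 to 70.7 ± 15.4 and from 94.4 ± 3.12 to 25 ± 7.56 TPM. The loop and distal claudin genes Cldn10 and Cldn8 rose from 21.1 ± 10 to 102 ± 16.5 and from 8.89 ± 2.19 to 17.8 ± 4.3 TPM. The proximal claudin gene Cldn2 rose from 89.9 ± 17.2 to 125 ± 15.8 TPM, with an adjusted p of 0.225 without cisplatin libraries 1 and 3.

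Genes of the proximal tubule were higher with NMN in each of 4 lists. In the list of glucose, phosphate, amino acid and bicarbonate reabsorption 23 of 28 rose and 2 fell (median 1.67 above that of all genes). Slc34a1, the sodium-phosphate cotransporter NaPi-IIa (chromosome 13, 55398187 to 55415592 in GRCm38), measured 67.5, 64.2, 88.3 and 74.3 TPM with cisplatin, 2324, 2506, 2108 and 2663 TPM with NMN and 3086, 3448, 3271 and 3214 TPM with PBS. Its NMN libraries lay above all cisplatin libraries and below all PBS libraries. Slc5a2, the glucose transporter SGLT2, measured 30.8, 31.5, 31.2 and 26.1 TPM with cisplatin and 254, 246, 206 and 235 TPM with NMN. Slc13a3, a dicarboxylate transporter, rose from 21.5 ± 1.35 to 209 ± 30 TPM and Slc7a13, an amino acid transporter of the late proximal tubule, from 6.17 ± 2.55 to 323 ± 55.1 TPM. The 2 falls were Slc6a18, a neutral amino acid transporter (from 422 ± 67.9 to 229 ± 28.9 TPM), and the phosphate transporter gene Slc20a2 (from 26.1 ± 2.13 to 16.3 ± 0.864). Both had PBS means under those of cisplatin (174 and 11.6 TPM).

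Organic ion transporters, which carry drugs and metabolites into urine, rose in 19 of 25 cases and fell in 2. Slc22a2, the cation transporter OCT2 that also carries cisplatin, measured 25.4, 47.4, 32.8 and 46 TPM with cisplatin and 147, 134, 156 and 178 TPM with NMN, with no overlap. The anion transporters Slc22a8 (OAT3) and Slc22a6 (OAT1) rose from 6.24 ± 0.676 to 133 ± 19.5 and from 15.9 ± 2.36 to 224 ± 37.7 TPM. The 2 falls were efflux pumps of the ABC family: Abcb1b, a P-glycoprotein, from 24.5 ± 4.36 to 6.7 ± 2.77 TPM, and Abcc4 from 22 ± 4.65 to 8.75 ± 0.419 TPM. Of 13 genes of protein uptake 7 rose, including the endocytic receptors Lrp2 (megalin) and Cubn (cubilin), from 14 ± 1.56 to 81.6 ± 13.7 and from 5.21 ± 1.21 to 24.2 ± 4.54 TPM. Tmem27 (collectrin) rose from 173 ± 6.3 to 942 ± 114 TPM. Rab11a, a recycling GTPase, fell from 205 ± 15 to 111 ± 19.7 TPM. Of 30 enzymes of the brush border and cell body 27 rose and 0 fell (limma; 30 rose with median-of-ratios scaling), with a median 2.95 above that of all genes. Inmt, an N-methyltransferase, rose from 20.7 ± 4.71 to 973 ± 94.9 TPM.

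Transcription factors of the nephron moved in both directions, with 11 of 29 higher and 5 lower. Hnf4a, the nuclear receptor that drives proximal tubule genes, measured 35.3, 50.9, 28.2 and 43.4 TPM with cisplatin, 118, 137, 135 and 165 TPM with NMN and 145, 165, 192 and 188 TPM with PBS. Maf and Emx1 rose from 7.95 ± 1.37 to 27 ± 4.36 and from 6.33 ± 1.23 to 22.6 ± 2.1 TPM. The falls were Pax8 and Pax2, factors of kidney development (from 90.5 ± 14 to 37.6 ± 5.45 and from 13.3 ± 2.07 to 6.97 ± 1.11 TPM), Zfp36l1, Elf5 and Emx2. Zfp36l1, an RNA-binding protein that destabilises mRNAs, went from 116 ± 21.4 to 45.6 ± 9.96 TPM. Emx2 (adjusted p = 0.0259) lost its call with median-of-ratios scaling (adjusted p = 0.222) and without cisplatin library 3 or NMN library 2 or 4 (adjusted p 0.0545 to 0.0843). The 250 bases before the RefSeq start of Slc34a1 (chr13:55399398-55399647, plus strand, GRCm38.p6, 5′ to 3′) are shown since this gene was the rise with the smallest adjusted p, 4.06e-16, with matches to the half-site GTTAAT of the tubule factor HNF1, on either strand, in capitals.
Slc34a1: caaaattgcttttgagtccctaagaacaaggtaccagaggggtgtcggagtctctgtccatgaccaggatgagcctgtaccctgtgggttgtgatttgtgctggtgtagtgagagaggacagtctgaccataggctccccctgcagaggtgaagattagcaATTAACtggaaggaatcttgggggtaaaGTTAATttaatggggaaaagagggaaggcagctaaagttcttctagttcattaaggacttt
The matches begin 89 and 61 bases before the RefSeq start, and the whole window lies inside the gene as GENCODE vM21 gives it, downstream of the start at 55398187. Slc13a3 held no match to it in its window of the same length. Of 22 reabsorption genes with a RefSeq promoter 4 (18.2%) held this HNF1 half-site, compared with 6.52% of 27025 promoters. Higher shares were found in other lists, among them complement and acute phase genes (33.3% of 15) and the EGF receptor family and its ligands (37.5% of 8). A match of letters is a description of the window and no evidence that the factor binds there.

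Many genes of later nephron segments were also higher with NMN, other than those of the principal cells. Of 16 genes of the distal convoluted tubule 13 rose. Sgms2 fell (from 27.6 ± 4.1 to 19.8 ± 1.79 TPM, adjusted p = 0.0467), a call lost with median-of-ratios scaling (adjusted p = 0.332), without cisplatin library 1, 2 or 4 and without NMN library 1, 2 or 3 (adjusted p 0.0735 to 0.12). Slc12a3, the thiazide-sensitive sodium chloride cotransporter, measured 19.4, 12.7, 6.79 and 11.5 TPM with cisplatin and 278, 199, 185 and 331 TPM with NMN. Klhl3, which targets its regulators for degradation, and Pvalb, the calcium buffer parvalbumin, rose from 0.745 ± 0.105 to 6.62 ± 0.538 and from 0.527 ± 1.05 to 19.1 ± 3.74 TPM. In the thick ascending limb 8 of 14 rose and 0 fell (limma; without cisplatin library 3, 2 fell). Without cisplatin libraries 1 and 3, 6 rose and 2 fell. The summed TPM of that list overlapped, at 495, 957, 402 and 812 with cisplatin and 864, 920, 1104 and 1725 with NMN. Tmem52b rose from 6.84 ± 2.54 to 74.8 ± 23.8 TPM. Egf, whose product is shed into urine, measured 6, 10.8, 5.8 and 11.1 TPM with cisplatin, 118, 94.9, 123 and 268 TPM with NMN and 159, 122, 229 and 328 TPM with PBS. Replicate 4 was the highest NMN library for 12 of these 14 genes. Umod, the most abundant protein of normal urine, overlapped between the groups at 251, 613, 221 and 517 and 290.4, 325, 469.8 and 803 TPM (adjusted p = 0.67).

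Of 16 genes of the acid-base regulating intercalated cells 10 rose and 0 fell (limma; 13 and 0 with median-of-ratios scaling). Their summed TPM was 561, 453, 420 and 460 with cisplatin and 561, 753, 617 and 629 with NMN, so library 1 of each group held about the same sum. The ammonia channel gene Rhcg rose from 13 ± 3.29 to 54.6 ± 10.3 TPM, the proton pump subunit gene Atp6v1b1 from 23.9 ± 2.42 to 61.2 ± 12.6 TPM and the carbonic anhydrase gene Car12 from 20.5 ± 4.2 to 55.1 ± 9.38 TPM. Of 14 genes of principal cells, which reabsorb water and sodium, 4 fell and 3 rose, near the 34.0% and 15.1% of all tested genes. Aqp2, the vasopressin-regulated water channel, measured 333, 405, 413 and 384 TPM with cisplatin and 168, 233, 199 and 191 TPM with NMN, against 145, 181, 192 and 153 TPM with PBS. The rises were Scnn1g, a subunit of the epithelial sodium channel (from 9.25 ± 1.19 to 15.8 ± 2.47 TPM), Hsd11b2 and the basolateral water channel gene Aqp3. Hsd11b2, which shields the aldosterone receptor from other steroids, went from 68.4 ± 8.71 to 122 ± 28.7 TPM. The call of Aqp3 was lost without cisplatin library 3 (adjusted p = 0.0532). With median-of-ratios scaling 5 rose. In the list of vitamin D, Klotho and renin-angiotensin genes 6 of 13 rose and 2 fell. Kl, the Klotho co-receptor of FGF23, rose from 11.5 ± 3.37 to 111 ± 30.7 TPM and the angiotensin receptor gene Agtr1a from 3.55 ± 1.83 to 15.7 ± 3.2 TPM. Cyp27b1, which makes active vitamin D, and Agt, angiotensinogen, fell from 11.5 ± 4.29 to 3.5 ± 1.71 and from 118 ± 44.6 to 57.6 ± 18.5 TPM.

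Genes of the glomerulus and vessels were higher with NMN, and cisplatin library 1 stood apart from the other cisplatin libraries in them. Of 14 podocyte genes 9 rose (12 without cisplatin libraries 1 and 3). The summed TPM of the podocyte genes was 157, 53.9, 48.4 and 62.9 with cisplatin and 143, 246, 164 and 195 with NMN. Cisplatin library 1 lay above the other 3 and above the lowest NMN library. Col4a3 and Col4a4, collagen chains of the glomerular basement membrane, rose from 8.14 ± 2.52 to 24.7 ± 3.37 and from 9.23 ± 2.33 to 22.7 ± 3.4 TPM. Of 18 endothelial genes 10 rose and Ramp2 fell, a call lost with median-of-ratios scaling (adjusted p = 0.0576), and without cisplatin library 3 the falls were 3. Plvap, a protein of endothelial diaphragms, rose from 10.4 ± 7.56 to 51.5 ± 12.1 TPM and the VEGF receptor gene Kdr from 1.3 ± 0.573 to 5.13 ± 1.28 TPM. The endothelial sum was 259, 163, 151 and 157 TPM with cisplatin and 219, 357, 290 and 241 TPM with NMN, and replicate 2 was the highest NMN library for 17 of the 18 genes.

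Of 13 genes of fibroblasts, pericytes and renin cells 8 rose, and Cspg4, the pericyte proteoglycan NG2, fell from 13.7 ± 0.765 to 6.85 ± 2.03 TPM. Ren1, renin, measured 61.4, 7.53, 5.82 and 6.95 TPM with cisplatin and 43.3, 78.9, 95.96 and 74.7 TPM with NMN, so that cisplatin library 1 overlapped the NMN range. The summed TPM of that list was 147, 73.1, 68.4 and 65.4 with cisplatin and 115, 230, 216 and 187 with NMN. Without cisplatin libraries 1 and 3, 8 genes of this list rose and 1 fell, and in the endothelial list 10 rose and 1 fell.

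All 4 globin genes tested rose (2 of alpha and 2 of beta type). Hbb-bs, an adult beta globin, measured 2.72, 1.62, 11.1 and 1.25 TPM with cisplatin, 488, 944, 684 and 736 TPM with NMN and 634, 1274, 1089.9 and 944 TPM with PBS. In the red blood cell list 6 of 8 genes rose, with summed TPM of 43.1, 34.3, 53.2 and 37 with cisplatin and 1391, 2908, 2001 and 2112 with NMN. Alas2, the haem synthesis enzyme of red cell precursors, rose from 0.198 ± 0.261 to 6.9 ± 1.71 TPM. Of 8 dendritic cell and MHC class II genes 4 rose, among them H2-Aa at 14.8, 5.63, 4 and 3.75 TPM with cisplatin and 37.7, 79.1, 60.8 and 40.8 TPM with NMN. Cd74, the invariant chain, rose from 31.2 ± 14.2 to 171 ± 53.2 TPM. Of 16 macrophage and monocyte genes 3 rose, near the 15.1% of all genes, and 2 fell (5 rose with median-of-ratios scaling, and 5 without cisplatin library 1). Csf1r, the receptor for macrophage growth factor, and Mertk, which clears dying cells, rose from 5.15 ± 0.884 to 12.1 ± 1.21 and from 5.45 ± 0.938 to 13.2 ± 1.98 TPM. Cd68 and Cd14 fell from 105 ± 11.3 to 34.4 ± 12.4 and from 37.6 ± 4.9 to 12.1 ± 4.65 TPM.

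The 4 tested neutrophil genes had 0 calls by limma or with median-of-ratios scaling (S100a8, S100a9, Csf3r and Retnlg, adjusted p from 0.403 to 0.837). In the T and natural killer cell list Lck was the only gene over the minimum (0.88 ± 0.747 and 1.28 ± 0.257 TPM, adjusted p = 0.285). Of 4 tested B and plasma cell genes 3 fell. Cd79a, a subunit of the B cell receptor, fell from 1.27 ± 0.198 to 0.233 ± 0.176 TPM. Sdc1 and Xbp1, which epithelial cells also express, fell from 27.8 ± 2.61 to 8.76 ± 2.59 and from 114 ± 14.6 to 69.4 ± 11.7 TPM.

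Fat genes were lower with NMN, in counts that rested on cisplatin libraries 1 and 3. Of 11 tested members 7 fell and Pck1, which the proximal tubule also expresses, rose from 220 ± 57.7 to 819 ± 171 TPM; without cisplatin libraries 1 and 3 the falls were 3. Cidec, a lipid droplet protein, measured 32.6, 26.6, 34.1 and 23.1 TPM with cisplatin and 2.97, 7.17, 5.28 and 1.08 TPM with NMN. Adipoq, the hormone adiponectin that defines fat cells, measured 9.15, 4.27, 11.9 and 5.41 TPM with cisplatin and 0, 2.78, 0 and 0 TPM with NMN (adjusted p = 0.0076, and 0.0908 without cisplatin libraries 1 and 3). Adipoq was listed at 0 in NMN libraries 1, 3 and 4. Retn, resistin, fell from 9.96 ± 3.94 to 0.782 ± 0.625 TPM (adjusted p = 0.0102), with an adjusted p of 0.0715 without cisplatin libraries 1 and 3. Plin1 and Plin4, coat proteins of lipid droplets, fell from 5.69 ± 3.36 to 0.362 ± 0.475 and from 10.9 ± 2.32 to 1.48 ± 1.1 TPM. Genes of muscle and adrenal gland were at or near 0: 1 gene of each list passed the minimum, Mylpf (2.51 ± 1.62 and 2.11 ± 1.7 TPM) and Star (1.67 ± 1.31 and 0.812 ± 0.311 TPM). The summed TPM of the fat genes, Pck1 included, was 620, 519, 652 and 530 with cisplatin and 628, 1009, 1068 and 881 with NMN, and the part of attached fat in the result was not tested.

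Genes typical of liver went both ways, with 5 of 8 lower and 3 higher. Serpina1b, Fgb, a fibrinogen chain, and Apoc3 fell from 33.8 ± 8.97 to 5.12 ± 2.67, from 18.6 ± 3.74 to 3.73 ± 2.43 and from 296 ± 81.1 to 75.8 ± 26.3 TPM. Ttr, the thyroid hormone carrier transthyretin, rose from 9.99 ± 3.2 to 66.6 ± 30.7 TPM. Alb, albumin, rose from a low level, 0.725 ± 0.756 to 2.46 ± 0.834 TPM. In complement and acute phase genes 13 of 23 fell and 4 rose. These rises were near the 15.1% of all tested genes, of which 34.0% fell. Fga, another fibrinogen chain, measured 266, 556, 274 and 519.7 TPM with cisplatin and 48.9, 40.3, 156 and 29.5 TPM with NMN, with replicate 3 the highest NMN library and still below every cisplatin library. Serpina3n, an acute phase protease inhibitor, and Cp, the copper carrier ceruloplasmin, fell from 25.8 ± 3.03 to 2.95 ± 1.89 and from 114 ± 14.5 to 20.8 ± 9.83 TPM. C3, the central complement protein, measured 91.1, 108, 106 and 128 TPM with cisplatin and 23.5, 28.1, 39.8 and 12.4 TPM with NMN. Cfb, C2 and Serping1, which activate or restrain complement, were among the rises (C2 with an adjusted p of 0.0502 without cisplatin library 3), with Cfb at 108 ± 9.82 and 210 ± 18.9 TPM.

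Inflammatory signals were lower with NMN, with exceptions among the chemokines. Of 15 tested chemokines 9 fell and 3 rose, the rises near the 15.1% of all tested genes, of which 34.0% fell. Cxcl1, a neutrophil attractant, measured 107, 92.1, 107 and 96.3 TPM with cisplatin and 29.5, 18.4, 31.2 and 12.9 TPM with NMN. Cxcl16 fell from 81 ± 3.68 to 34.6 ± 2.39 TPM, and Ccl20 and Ccl28 fell from 7.64 ± 1.71 to 2.01 ± 0.374 and from 12.1 ± 4.31 to 1.79 ± 1.14 TPM. Ccl2, the monocyte attractant, measured 9.61, 3.37, 7.7 and 6.47 TPM with cisplatin and 3.37, 4.37, 2.04 and 1.99 TPM with NMN (adjusted p = 0.00723), where cisplatin library 2 equalled NMN library 1. The call was lost without cisplatin libraries 1 and 3 (adjusted p = 0.148) and with a pseudocount of 0.1 (adjusted p = 0.0902). The rises were Cxcl12, which holds CXCR4-bearing cells in tissues, at 2.06, 2.29, 2.62 and 3.42 TPM with cisplatin and 22.3, 51.2, 58.96 and 50.2 TPM with NMN, and Cxcl14 and Ccl19. Cxcl14 went from 2.37 ± 1.41 to 14.2 ± 5.95 TPM and Ccl19 from 0.41 ± 0.647 to 3.53 ± 1.85 TPM, the latter with an adjusted p of 0.0622 without cisplatin libraries 1 and 3.

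Of 21 cytokine and receptor genes 13 fell and 2 rose (Il15 and the LIF receptor Lifr). Tnfrsf1a, the main receptor for TNF, fell from 87.4 ± 5.65 to 38.4 ± 7.14 TPM, and the interferon-gamma receptor gene Ifngr1 from 57.7 ± 8.77 to 26.4 ± 6.16 TPM; Tnf and Il6 themselves stayed under the minimum. In the TNF receptor superfamily 10 of 15 fell, with Tnfrsf12a, the receptor of TWEAK, from 715 ± 82.6 to 175 ± 70.8 TPM and Eda2r, a p53-induced receptor, from 18.8 ± 3.83 to 3.78 ± 1.3 TPM. Tnfrsf14 and Tnfrsf25 rose. Tnfrsf14 lost its call without any 1 cisplatin library and without NMN library 1, 2 or 4 (adjusted p 0.0596 to 0.108), and Tnfrsf25 without cisplatin library 2 or 3 or NMN library 1, 3 or 4 (adjusted p 0.0519 to 0.116). Of 21 NF-kB genes 20 fell and the kinase gene Chuk rose, a call lost without cisplatin library 3 or 4 and without NMN library 2 or 4 (adjusted p 0.0671 to 0.112). The subunit genes Nfkb2 and Rela fell from 57.6 ± 7.88 to 15.4 ± 3.59 and from 68.7 ± 9.05 to 24 ± 4.73 TPM. The kinase gene Ikbkb fell from 68 ± 3.72 to 29.7 ± 4.3 TPM and the cofactor gene Bcl3 from 25.2 ± 3.28 to 7.45 ± 1.62 TPM. Tnfaip3, which encodes the feedback inhibitor A20, measured 14.8, 10.04, 10.3 and 10.2 TPM with cisplatin and 3.15, 1.98, 4.1 and 2 TPM with NMN.

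Interferon-stimulated genes, which cells turn on after sensing virus or displaced nucleic acid, fell in 36 of 42 cases and rose in 0 (32 and 0 with median-of-ratios scaling). Oas1a, which makes the messenger that activates RNase L, measured 15.6, 11.4, 12.9 and 15.2 TPM with cisplatin and 2.42, 2.44, 4.05 and 1.66 TPM with NMN, and Ifit3, an antiviral protein, 44.1, 46.2, 28.6 and 45.2 and 6.93, 11.4, 10.02 and 8.24 TPM. Isg15, a ubiquitin-like modifier, measured 85.2, 65.4, 49.5 and 57.8 TPM with cisplatin and 14.1, 14.9, 19.3 and 15.97 TPM with NMN. All NMN libraries lay below all cisplatin libraries for these genes. The 250 bases before the RefSeq starts of Ifit3 (chr19:34583279-34583528, plus strand) and Oas1a (chr5:120907526-120907775, minus strand), GRCm38.p6, 5′ to 3′, are shown since these genes had the smallest adjusted p-values of the list. Capitals mark matches, on either strand, to the core of the interferon-stimulated response element, which is GAAA, any 2 bases and GAAA again.
Ifit3: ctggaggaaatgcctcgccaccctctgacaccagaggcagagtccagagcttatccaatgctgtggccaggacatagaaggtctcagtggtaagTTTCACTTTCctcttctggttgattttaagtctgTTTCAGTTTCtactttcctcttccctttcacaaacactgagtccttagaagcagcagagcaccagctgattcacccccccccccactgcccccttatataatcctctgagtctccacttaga
Oas1a: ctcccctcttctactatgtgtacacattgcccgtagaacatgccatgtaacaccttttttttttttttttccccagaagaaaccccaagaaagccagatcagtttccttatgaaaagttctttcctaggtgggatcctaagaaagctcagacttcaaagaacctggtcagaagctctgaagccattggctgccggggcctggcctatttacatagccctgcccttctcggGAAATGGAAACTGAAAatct
Ifit3 holds matches that begin 156 and 122 bases before the start. Oas1a holds matches, overlapping each other, that begin 20 and 14 bases before it. Of 31 genes of this list with a RefSeq promoter, 11 (35.5%) held the motif, against 3.04% of 27025 promoters, and the next list by share was that of chemokines (27.3% of 11). Ifi35, which fell from 49.3 ± 2.23 to 16.3 ± 2.25 TPM, held none in this window.

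In the list of RNA and DNA sensing 13 of 26 genes fell and 1 rose. The list holds sensors, and also adaptors, kinases, nucleases and genes of mitochondrial pores and channels. Some members, among them Ddx58, Ifih1, Bax and Bak1, are also in the interferon, p53 or cell death lists, so these counts are not independent. Ddx58, the RNA sensor RIG-I, measured 26.1, 22.9, 17.1 and 18.8 TPM with cisplatin and 6.22, 9.92, 11.8 and 5.54 TPM with NMN. Ifih1, the sensor MDA5, fell from 6.47 ± 1.5 to 3.09 ± 0.675 TPM and their adaptor gene Mavs fell from 34.9 ± 4.54 to 24.6 ± 2.59 TPM. Tmem173, the DNA-sensing adaptor STING, measured 17.1, 8.4, 6.59 and 8.56 TPM with cisplatin and 1.57, 4.47, 4.62 and 2.79 TPM with NMN, with cisplatin library 1 above the other 3 and no overlap. Mb21d1, the DNA sensor cGAS, stayed under the minimum. Bax and Bak1, pore-forming proteins through which mitochondrial DNA can leave, fell from 355 ± 14.8 to 123 ± 31.2 and from 32.8 ± 3.3 to 11.4 ± 2.33 TPM. Trex1, which degrades DNA in the cytosol, fell from 19.6 ± 2.59 to 8.7 ± 0.793 TPM. The rise was Vdac1, a channel of the outer mitochondrial membrane (from 198 ± 24.9 to 283 ± 37.8), a call lost without cisplatin libraries 1 and 3 (adjusted p = 0.0545). In the MHC class I list 12 of 17 fell and H2-Q6 and H2-Q7 rose. H2-Q7 lost its call without cisplatin library 2 or 3 or NMN library 2, 3 or 4 (adjusted p 0.0532 to 0.0957). H2-K1 and the peptide transporter gene Tap1 fell from 709 ± 94.1 to 322 ± 51.6 and from 33.2 ± 5.69 to 10.9 ± 2.97 TPM. The H2 genes resemble each other, so the split of reads among them is uncertain.

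Matrix genes went both ways. Of 31 collagen and matrix genes 10 rose and 9 fell. The falls were near the 34.0% of all tested genes and the rises above their 15.1%. The rises numbered 5 without cisplatin library 2 or NMN library 4 and 6 without cisplatin library 4 or NMN library 2 or 3. Genes of the basement membrane were on both sides. The collagen genes that fell were Col18a1 (from 254 ± 30 to 80.1 ± 27.3 TPM), Col4a1 (from 79.5 ± 7.86 to 44 ± 7.62) and Col4a5. The laminin genes that fell included Lama3, Lama5, Lamb1, Lamb3 and Lamc1, and Lama5 fell from 92.4 ± 13.5 to 39.5 ± 3.85 TPM. Col4a5 was not called without cisplatin library 1 or NMN library 2 (adjusted p 0.0653 to 0.078), nor Lama3 without cisplatin library 1 or NMN library 2 or 4 (adjusted p 0.0766 to 0.101). Col4a3 and Col4a4 led the rises, which also held the basement membrane genes Col15a1, Lama1 and Lama2, with Lama2 from 0.237 ± 0.32 to 2.07 ± 0.851 TPM. Col15a1 lost its call without cisplatin library 2 or 4 or NMN library 2, 3 or 4 (adjusted p 0.0602 to 0.107). Lama1 lost it without cisplatin library 2 or 3 or NMN library 1 or 4 (adjusted p 0.0513 to 0.0878). Col3a1, a fibrillar collagen of fibroblasts, measured 5.33 ± 4.96 and 11.3 ± 5.39 TPM and was not called (adjusted p = 0.0745). In the protease list 15 of 22 fell and 2 rose. Plaur, the urokinase receptor, fell from 116 ± 17.5 to 26.1 ± 7.94 TPM and Serpinb6a from 121 ± 13.7 to 38.1 ± 6.46 TPM. Timp3 and Timp2, inhibitors of metalloproteinases, rose from 99.6 ± 25 to 258 ± 38.7 and from 4.87 ± 2.66 to 11 ± 4.03 TPM.

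Of 11 genes of the EGF receptor family and its ligands 5 fell and Egf rose. The ligands went opposite ways: Hbegf, Areg and Nrg1 fell from 44.6 ± 5.32 to 17.1 ± 2.62, from 7.05 ± 0.389 to 1.03 ± 0.916 and from 26.3 ± 2.68 to 8.8 ± 2.06 TPM. In the TGF-beta, activin and BMP list 10 of 24 fell, near the 34.0% of all genes, and Id2 rose, a call lost without any 1 cisplatin library and without NMN library 2, 3 or 4 (adjusted p 0.0519 to 0.124). Ctgf, a matrix-associated growth factor, fell from 288 ± 49.5 to 69.7 ± 11.4 TPM, Fst, the activin antagonist follistatin, from 11.8 ± 4.29 to 1.3 ± 0.423 TPM, and the receptor gene Tgfbr2 from 36.1 ± 5.63 to 13.7 ± 0.986 TPM.

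Genes that make NAD from tryptophan were higher with NMN. Of 10 tested 8 rose and 0 fell (limma; 1 fell without cisplatin library 1), with a median 1.86 above that of all genes. Qprt, which turns quinolinate into the NAD precursor of this route, measured 12.6, 21.9, 12.5 and 19.4 TPM with cisplatin and 43.5, 45.1, 43.6 and 41.8 TPM with NMN, with no overlap. Kmo, Haao and Afmid, earlier enzymes of the route, rose from 5.94 ± 1.8 to 39.2 ± 4.92, from 30.5 ± 12.1 to 143 ± 13.1 and from 11.6 ± 1.01 to 35.1 ± 1.85 TPM. Acmsd, which diverts the route away from NAD, rose most, from 1.15, 1.27, 0.89 and 1.04 TPM with cisplatin to 36.4, 40.4, 31.7 and 44.5 TPM with NMN. These genes are expressed in the proximal tubule, whose own lists rose in the same libraries, and the part of the cell type in the result was not tested.

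Salvage genes showed smaller differences, with 5 of 11 higher and 3 lower. Of all tested genes 15.1% were higher and 34.0% lower, so the falls were no more frequent than over all genes. Nampt, which makes NMN from nicotinamide, overlapped between groups at 31.3, 35.5, 24.7 and 37.7 TPM with cisplatin and 22.7, 31.6, 29.97 and 35.5 TPM with NMN (log2 change -0.11, 95% interval -0.44 to 0.23, adjusted p = 0.603). Nmrk1, the kinase that makes NMN from NR, measured 28.5, 33.1, 26.9 and 28.9 TPM with cisplatin and 42.6, 57.3, 51.99 and 46.9 TPM with NMN, without overlap. Nmnat1, which joins NMN to ATP in the nucleus, measured 9.83 ± 2.69 and 10.7 ± 2.26 TPM (95% interval of the log2 change -0.34 to 0.59). Naprt, the entry of nicotinic acid, rose from 19.1 ± 2.65 to 27.6 ± 2.22 TPM (adjusted p = 0.0201), a call lost without cisplatin library 1 (adjusted p = 0.0648) and without NMN library 1 (adjusted p = 0.0534). An exon of it overlaps Eef1d on the same strand. The NAD kinase genes went opposite ways: the mitochondrial Nadk2 rose from 8.25 ± 0.477 to 17.9 ± 2.6 TPM and the cytosolic Nadk fell from 123 ± 14.2 to 75.4 ± 4.77 TPM. Nnt, which exchanges electrons between NADH and NADP in mitochondria, rose from 2.28 ± 2.56 to 9.85 ± 6.12 TPM, with overlap between the groups. Pnp and Pnp2, phosphorylases that split nucleosides such as NR, fell from 62 ± 10.8 to 34.9 ± 5.34 and from 14.3 ± 2.23 to 3.52 ± 0.478 TPM. Nmrk2 stayed under the minimum, listed at 0 in every NMN library and with means of 0.05 TPM with cisplatin and 0.0075 TPM with PBS.

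Genes of precursor uptake, NAD cleavage and nicotinamide disposal went both ways, with 7 of 15 higher and 5 lower. The falls were near the 34.0% of all tested genes, of which 15.1% rose. With median-of-ratios scaling 3 were lower, and 3 without cisplatin library 2 or 4 or NMN library 1. Nt5e, the surface enzyme CD73 that can turn NMN into NR, measured 34.3, 41.8, 32.7 and 41.8 TPM with cisplatin and 20.9, 18.6, 26.1 and 20.1 TPM with NMN, without overlap. Bst1 (CD157), which cleaves NAD, fell from 22.5 ± 2.89 to 4.66 ± 2.45 TPM, and Nnmt, which methylates nicotinamide for disposal, fell from 4.71 ± 2.31 to 0.958 ± 0.88 TPM. Cd38, the other cleaving enzyme, measured 1.21 ± 0.545 and 1.78 ± 0.5 TPM (adjusted p = 0.291, 95% interval -0.21 to 0.90). The nucleoside transporters Slc29a1 and Slc29a3 rose from 11 ± 2.37 to 30.9 ± 11.7 and from 6.55 ± 0.897 to 15.6 ± 3.19 TPM. Slc25a51, the carrier of NAD into mitochondria, measured 40.98, 34.6, 31.9 and 34.1 TPM with cisplatin and 40.4, 47.4, 49.6 and 53.8 TPM with NMN, with cisplatin library 1 just above the lowest NMN library (adjusted p = 0.011). Slc12a8, described as an NMN transporter, stayed under the minimum, between 0 and 0.23 TPM in the NMN libraries. Cyp2e1, an oxidase that acts on nicotinamide among many substrates, rose from 39.1 ± 9.48 to 638 ± 163 TPM.

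**Figure D4:**
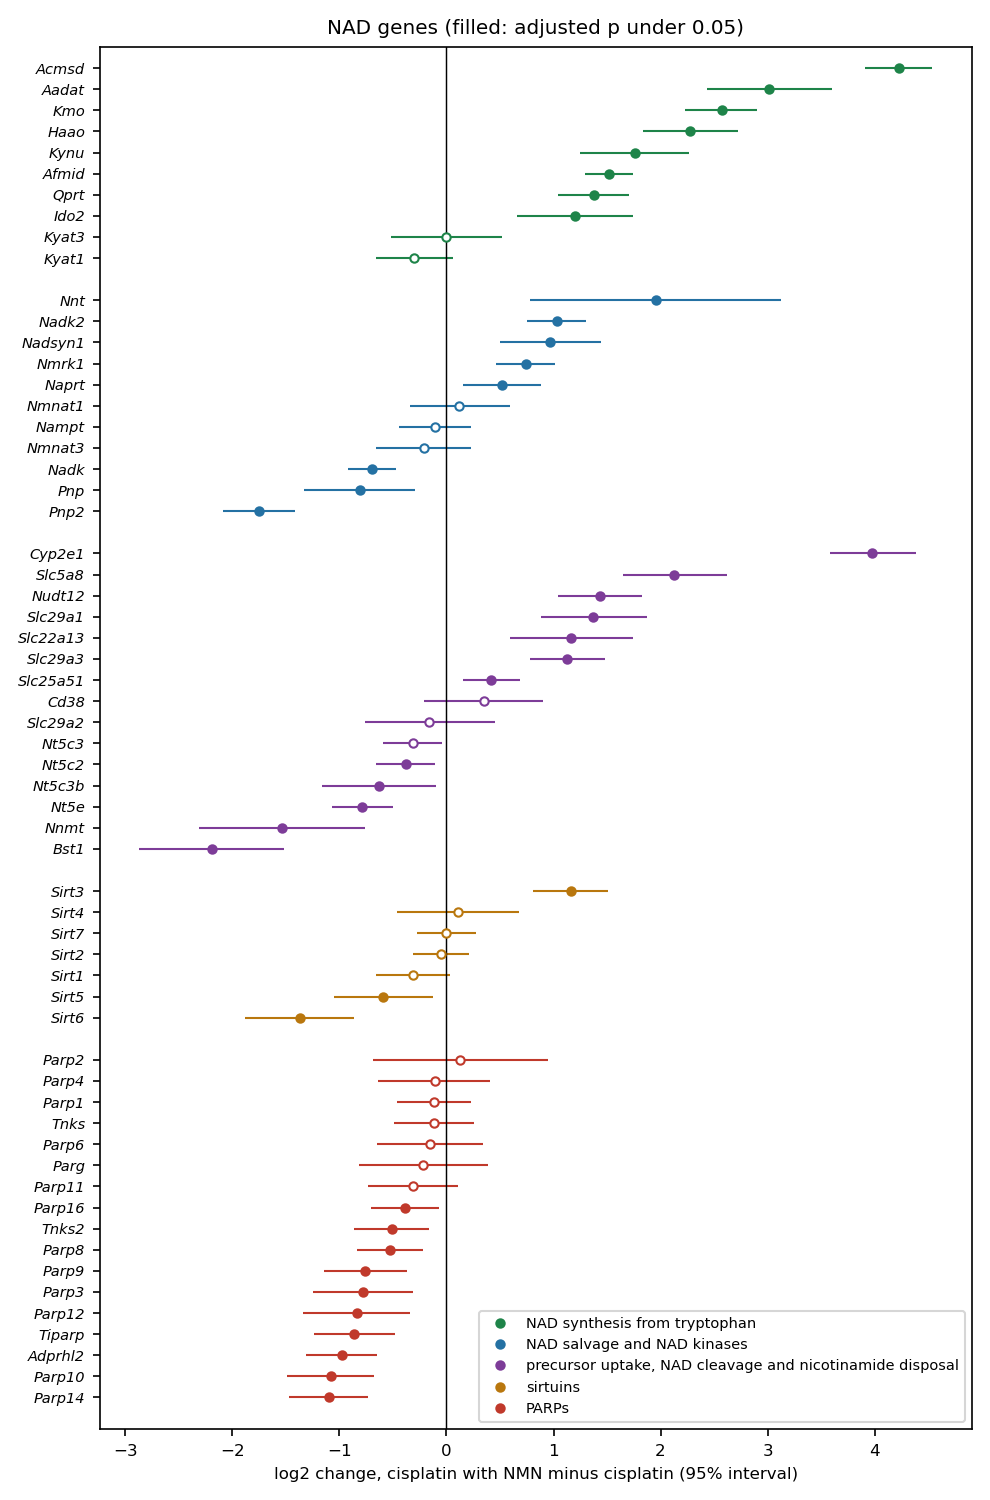
log2 change with its 95% interval (cisplatin with NMN minus cisplatin) of each tested gene in 5 lists of NAD genes, one colour per list; filled points passed the test and open points did not. Genes of synthesis from tryptophan lie to the right, PARP genes to the left of or at 0, and Nampt, Nmnat1, Cd38, Sirt1 and Parp1 are open.

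Among the NAD-consuming enzymes, 1 sirtuin of 7 rose and 2 fell, near the 15.1% and 34.0% of all tested genes. The rise was Sirt3, the main mitochondrial deacetylase, at 22.1, 32.8, 19.9 and 23.97 TPM with cisplatin and 62.4, 47.5, 59.03 and 54.1 TPM with NMN. Exons of Sirt3 overlap those of Psmd13 and Ric8a on the other strand. Sirt6, a nuclear sirtuin of DNA repair, measured 17.7, 16.5, 12.4 and 17.8 TPM with cisplatin and 5.47, 2.99, 8.84 and 6.32 TPM with NMN. Sirt5 fell from 12.1 ± 3.83 to 7.5 ± 1.96 TPM, a call lost with median-of-ratios scaling (adjusted p = 0.13) and without cisplatin library 1, 2 or 4 or NMN library 1, 2 or 4 (adjusted p 0.0596 to 0.11). Sirt1 measured 7.53 ± 1.16 and 5.9 ± 1.31 TPM (adjusted p = 0.121). Of 17 PARP genes 10 fell and 0 rose (limma; 8 and 0 with median-of-ratios scaling). Parp14, Parp9, Parp10 and Parp12, which interferon induces, went from means of 6.07 to 2.32, 9.08 to 4.87, 44.1 to 20.2 and 11.1 to 5.54 TPM. Parp1, the main consumer of NAD at DNA breaks, measured 10.5 ± 0.495 and 9.78 ± 1.99 TPM (95% interval -0.46 to 0.23).

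Mitochondrial transcripts took a larger share of the libraries with NMN. The 13 mitochondrially encoded mRNAs made up 15.6, 16.6, 17.6 and 16.6% of listed TPM in cisplatin libraries 1 to 4 and 28.3, 25, 22.7 and 27.9% in NMN libraries 1 to 4. The difference of the means was 9.41 percentage points (exact permutation test, two-sided, p = 0.0286, the smallest that 4 against 4 allows). The 82 cytosolic ribosomal protein genes made up 16.1, 16, 17.6 and 15.6% and 8.46, 8.51, 9.52 and 7.24% in the same order, a difference of -7.89 points (exact permutation test, p = 0.0286; the Benjamini-Hochberg value over both shares is the same). The groups did not overlap in either share. Since TPM has a fixed total, a share that grows lowers all others, and the 2 shares are not independent.

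**Figure D5:**
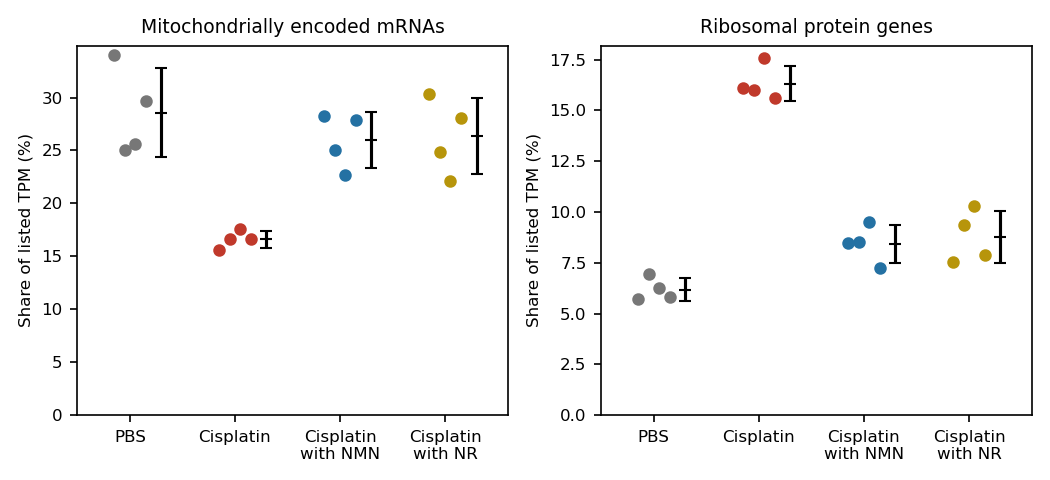
Percent of listed TPM in the 13 mitochondrially encoded mRNAs (left) and in 82 ribosomal protein genes (right) for each library of 4 groups, with mean and SD at the side of the points. NMN libraries lie above cisplatin libraries on the left (26 ± 2.62 against 16.6 ± 0.843) and below them on the right (8.44 ± 0.933 against 16.3 ± 0.868).

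Of the 13 mitochondrial mRNAs 10 rose, including ND3 and ND4 of complex I (from 19684 ± 2203 to 36591 ± 3717 and from 7158 ± 479 to 15221 ± 2019 TPM) and CYTB of complex III (from 9260 ± 679 to 19211 ± 2780). COX1, the core of complex IV, measured 28054, 26613, 30171 and 31209 TPM with cisplatin and 33812, 31748, 26872 and 35620.0 TPM with NMN, overlapped and was not called (log2 change 0.14; -0.54 and called with quantile scaling). Of 40 nuclear genes of oxidative phosphorylation 28 rose and 0 fell (limma; 33 and 0 with median-of-ratios scaling, 18 and 0 without cisplatin libraries 1 and 3). Ndufs1 of complex I and Sdha of complex II rose from 39.2 ± 7.41 to 89.2 ± 9.18 and from 109 ± 7.16 to 202 ± 31 TPM. In the citric acid cycle 16 of 19 rose and 0 fell (limma; 17 and 0 with median-of-ratios scaling). Idh2, which makes mitochondrial NADPH, rose from 71.5 ± 12.4 to 225 ± 26.1 TPM and Pcx, pyruvate carboxylase, from 49.5 ± 4.28 to 129 ± 14.8 TPM. Of 35 genes of fatty acid oxidation and peroxisomes 19 rose and 6 fell (3 fell with median-of-ratios scaling). Hadh and the peroxisomal catalase Cat rose from 72.2 ± 12.4 to 189 ± 25.8 and from 111 ± 12.8 to 331 ± 41.9 TPM. Pdk4, the kinase that shuts off pyruvate oxidation, fell from 60.8 ± 7.26 to 16.2 ± 3.01 TPM and the trifunctional enzyme gene Hadha from 91.9 ± 12.2 to 58.1 ± 5.1 TPM.

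Regulators of mitochondrial number and shape rose in 7 of 27 cases and fell in 4. The count of falls was 0 with median-of-ratios scaling (limma, with 10 rises), 1 without cisplatin library 1, and 2 without cisplatin library 2 or NMN library 4. Pink1 and Park2 (parkin), which mark damaged mitochondria for removal, rose from 65.7 ± 9.74 to 146 ± 10.2 and from 0.352 ± 0.256 to 2.44 ± 0.626 TPM. Glucose genes went both ways. In the list of glycolysis and gluconeogenesis 8 of 23 rose and 10 fell (6 fell with median-of-ratios scaling). The rises held the enzymes of glucose production G6pc, Fbp1 (from 86.8 ± 19.6 to 608 ± 69.5 TPM), Pck1 and Pcx, and among the others were Pfkm, Tpi1 and Ldhb. Hk2 and Pfkp, enzymes of glucose breakdown, measured 4.13, 3.39, 4.27 and 5.79 and 23.9, 33.1, 22.9 and 28.4 TPM with cisplatin and 1.23, 0.56, 1.59 and 0.31 and 8.9, 12.3, 15.6 and 12.6 TPM with NMN. Of 24 genes of sterol and fatty acid synthesis 7 rose and 2 fell (13 and 2 with median-of-ratios scaling). Hmgcs1 and Cyp51 of the cholesterol route rose from 42.1 ± 5.74 to 133 ± 17.9 and from 8.05 ± 0.566 to 51 ± 16.4 TPM, and Msmo1 of the same route fell from 48.4 ± 7.87 to 20.1 ± 2.8 TPM.

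Stress responses were lower with NMN in part. In the list of glutathione genes and targets of NRF2, the factor of the oxidative stress response, 18 of 28 fell and 5 rose. Hmox1, haem oxygenase, measured 202, 163, 169 and 189 TPM with cisplatin and 65.1, 48.4, 72.8 and 43.9 TPM with NMN, and Srxn1 and Pgd fell from 258 ± 32.6 to 82.8 ± 20.6 and from 161 ± 11.1 to 73 ± 5.27 TPM. The rises were the peroxidases Gpx1 and Gpx3, the superoxide dismutases Sod1 and Sod2, and Me1, with Gpx1 from 1316 ± 133 to 2754 ± 172 TPM and Sod2 from 157 ± 16.2 to 268 ± 24.7 TPM. Targets of ATF4, the factor of the amino acid and mitochondrial stress response, fell in 18 of 21 cases, led by the serine synthesis gene Phgdh (from 62.8 ± 6.37 to 10.3 ± 3.79 TPM). Shmt2, the mitochondrial serine enzyme, rose from 37.8 ± 3.21 to 114 ± 7.96 TPM. Of 20 aminoacyl-tRNA synthetases, which load tRNAs, 16 fell and 0 rose (limma; 14 and 1 with median-of-ratios scaling), with Vars from 46.2 ± 4.4 to 20.5 ± 4.74 TPM.

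Chaperones fell in 9 of 23 cases and rose in 2, near the 34.0% and 15.1% of all tested genes, and their median equalled that of all genes. With median-of-ratios scaling 5 fell and 6 rose. The small heat shock genes Cryab and Hspb1 fell from 1634 ± 92 to 364 ± 94.7 and from 321 ± 16.7 to 86.1 ± 27.7 TPM, and Hspa8, the constitutive HSP70, rose from 771 ± 26 to 1195 ± 218 TPM. Of 28 proteasome genes 22 fell (13 with median-of-ratios scaling), among them Psmd11 from 79.9 ± 9 to 37.5 ± 5.02 TPM and Psma7 from 274 ± 18.5 to 188 ± 12.2 TPM. In the autophagy and lysosome list 12 of 31 fell (7 with median-of-ratios scaling) and 6 rose, near the 34.0% and 15.1% of all tested genes, with a median -0.09 from theirs. Ctsd, the protease cathepsin D, fell from 1297 ± 120 to 532 ± 78.7 TPM, while Gabarapl1 rose from 128 ± 7.39 to 318 ± 46.5 TPM.

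Immediate early genes and AP-1 subunits, which cells turn on within minutes of growth signals, stress or handling, were mostly lower, with 19 of 22 down and 0 up (limma; 18 and 1 with median-of-ratios scaling, and 1 rose without cisplatin library 1 or NMN library 1). Egr1, a zinc finger factor, measured 77.04, 67.7, 67.6 and 68.1 TPM with cisplatin, 25.1, 21.9, 27.1 and 12.7 TPM with NMN and 3.81, 5.37, 1.88 and 2.9 TPM with PBS. Klf6 and the AP-1 subunit genes Jund and Fosl1 fell from 54.4 ± 7.47 to 16.3 ± 2.48, from 371 ± 23.6 to 160 ± 23 and from 87.8 ± 18.6 to 14.8 ± 6.75 TPM. Atf3, a factor of the same family, measured 36.2, 31.4, 28.9 and 26.9 TPM with cisplatin and 9.01, 12.6, 14.97 and 5.67 TPM with NMN. Fosb measured 10.1, 5, 7.55 and 8.33 TPM with cisplatin and 1.29, 1.31, 2.01 and 0.74 TPM with NMN, and of these genes replicate 4 was the lowest NMN library in 17 of 22 cases. Against PBS, 17 of the 22 were still higher with NMN, where 5.89% of all genes were called higher and 0.116% lower in that comparison. The 250 bases before the RefSeq start of Fosb (chr7:19310046-19310295, minus strand, GRCm38.p6, 5′ to 3′) are given as the promoter of an inducible AP-1 gene.
Fosb: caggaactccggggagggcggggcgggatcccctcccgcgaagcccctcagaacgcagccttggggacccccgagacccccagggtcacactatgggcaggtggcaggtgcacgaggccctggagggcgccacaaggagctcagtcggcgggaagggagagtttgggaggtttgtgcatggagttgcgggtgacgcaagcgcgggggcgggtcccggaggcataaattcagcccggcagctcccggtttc
This window held 0 matches to the AP-1 site TGANTCA, to the cAMP response element TGACGTCA or to the CArG box of serum response factor, searched on both strands, so it is printed without capitals. Of 18 genes of this list with a RefSeq promoter 0 held the AP-1 site, 2 (11.1%) the cAMP response element and 1 (5.56%) a CArG box, against 6.87%, 1.62% and 1.4% of 27025 promoters.

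Genes of the ribosome and of its assembly were lower with NMN. All 31 ribosomal protein genes of the list fell, also with median-of-ratios scaling and without cisplatin libraries 1 and 3. Rplp0, a protein of the ribosomal stalk, measured 2258, 2084, 2189.5 and 2142 TPM with cisplatin, 984, 886, 1049.9 and 819 TPM with NMN and 575, 720.05, 693 and 585 TPM with PBS. Replicate 4 was the lowest NMN library for 26 of the 31 and replicate 3 the highest for 25. Of 28 ribosome biogenesis genes 25 fell, under both scalings. Npm1, the nucleolar protein nucleophosmin, fell from 245 ± 21.9 to 126 ± 6.46 TPM. Nop56, a core protein of box C/D snoRNPs, fell from 90.5 ± 12.6 to 31.4 ± 6.71 TPM and the RNA helicase gene Ddx21 from 28.4 ± 3.32 to 10.4 ± 1.68 TPM. Utp20 rose from 14.1 ± 1.58 to 24.3 ± 3.13 TPM. Of 23 translation initiation genes 18 fell (12 with median-of-ratios scaling) and 2 rose, Eif4a2 and Eif4ebp2; these rises were 0 without cisplatin library 2 or NMN library 4. Eif4ebp1, a brake on cap-dependent translation that ATF4 induces, fell from 96.6 ± 17.1 to 23.2 ± 8.76 TPM and Eif6 from 318 ± 9.53 to 104 ± 23.6 TPM. Rplp0 and Hprt, common reference genes, were among 8 of 14 housekeeping genes that fell, Hprt from 171 ± 6 to 96.6 ± 9.26 TPM, where median-of-ratios scaling gave 4 lower and 4 higher.

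Genes of the circadian clock went both ways, with 7 of 19 higher and 9 lower. Dbp, a D-box activator driven by the clock, measured 20.2, 22.5, 17.7 and 24.2 TPM with cisplatin, 95.5, 149.9, 129 and 138 TPM with NMN and 118, 195, 185 and 168 TPM with PBS. Its relatives Hlf and Tef rose from 3 ± 0.957 to 17.4 ± 5.2 and from 42.3 ± 8.32 to 96.7 ± 16.2 TPM. The repressor genes Nr1d2 and Per3 rose from 12.8 ± 1.15 to 30.4 ± 2.75 and from 4.12 ± 0.859 to 9.56 ± 1.63 TPM. Arntl (BMAL1), the positive arm, measured 2.9, 2.06, 4.66 and 2.3 TPM with cisplatin and 0.79, 0.97, 1.01 and 1.21 TPM with NMN, with no overlap. Per2 measured 4.58, 5.22, 5.08 and 5.54 TPM with cisplatin and 6.82, 57.6, 13.2 and 24.4 TPM with NMN, so that replicate 2 alone carried most of its mean. The hour of collection is not stated in the labels, and its part in these values was not tested.

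A few genes lay outside the range spanned by PBS and cisplatin. PBS enters here only beside the main comparison, and both comparisons share the NMN libraries. Of all genes 59.4% were called in cisplatin against PBS and 6.0% in NMN against PBS. Cyp4a14, a fatty acid hydroxylase and a target of the nuclear receptor PPAR-alpha, measured 16.4, 21.6, 11.3 and 24.1 TPM with cisplatin, 27.1, 41.8, 45.5 and 40.8 TPM with NMN and 13.6, 13.04, 24.9 and 20.6 TPM with PBS. It was called against cisplatin (adjusted p = 0.00352) and PBS (adjusted p = 0.0202). Without cisplatin libraries 1 and 3 its change from cisplatin was 0.71 and not called (adjusted p = 0.0759), and reads of Cyp4a copies can be split. Spink1, a trypsin inhibitor, measured 551, 716, 761 and 589 TPM with cisplatin, 964, 869, 1088 and 856 TPM with NMN and 709, 802, 599.7 and 705 TPM with PBS. The call against cisplatin was lost without cisplatin library 1 (adjusted p = 0.0503). The ATP synthase gene Atp5l, from 865 ± 71.4 to 1038 ± 21.5 TPM, was called against cisplatin (adjusted p = 0.0371) but lost the call in 6 of the 8 fits without 1 library, all but those without cisplatin library 2 or 3 (adjusted p 0.0518 to 0.104). Below both lay Rcl1, a protein of ribosomal RNA processing, at 11.7, 10.4, 12.6 and 14.8 TPM with cisplatin, 8.51, 6.33, 8.87 and 8.5 TPM with NMN and 8.91, 10.4, 12.8 and 11.7 TPM with PBS. The call was lost with median-of-ratios scaling (adjusted p = 0.0836).

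Other genes that cisplatin had changed were not called with NMN. Among those high with cisplatin, Ccl17, a chemokine for T cells, measured 8.8, 9.38, 8 and 10.6 TPM with cisplatin and 4.83, 7.16, 4.58 and 7.39 TPM with NMN. Its PBS mean was 0.285 ± 0.57 TPM, and its log2 change from cisplatin was -0.56 (95% interval -1.06 to -0.06, adjusted p = 0.0575). Nupr1l measured 7.73 ± 4.98 and 5.62 ± 1.67 TPM (95% interval -1.06 to 0.49), and the skin barrier gene Lce3d 7.42 ± 1.83 and 3.54 ± 2.87 TPM (95% interval -2.46 to 0.04). Saa2, an acute phase gene, measured 3.7, 15.98, 6.6 and 13.1 TPM with cisplatin and 2.06, 0.57, 12.02 and 4.65 TPM with NMN (95% interval -2.28 to -0.02), with NMN library 3 inside the cisplatin range. Cfd, the fat-cell protein adipsin, measured 101, 64.3, 197 and 79.3 TPM with cisplatin, 0.76, 40.8, 6.65 and 0.78 TPM with NMN and 0.08, 47.5, 6.03 and 0.21 TPM with PBS. Its 95% interval was -7.77 to -0.57, with NMN library 2 and PBS library 2 each far above the others of their group. For Ccl17, Saa2 and Cfd the intervals lie below 0, so a missed call at this threshold does not show that NMN left them alone. Apoc1, Dus4l, Lypd2, Fam25c and Rab26os had log2 changes from -2.04 to -0.73 with adjusted p from 0.053 to 0.259.

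Among genes low with cisplatin, Slc12a1, the furosemide-sensitive transporter of the thick ascending limb, measured 26.7, 65.2, 18.3 and 56.5 TPM with cisplatin, 46.4, 61.8, 66.7 and 117 TPM with NMN and 61.03, 65.01, 99.97 and 132 TPM with PBS (95% interval 0.03 to 1.74). Cisplatin library 2 lay inside the PBS range, near its lower end, and library 4 just under that range. Cisplatin libraries 1 and 3 lay below all NMN libraries. Scd1, which desaturates fatty acids, and the complement gene C1qc of macrophages measured 18.8 ± 6.16 and 4.36 ± 4.64 TPM with cisplatin and 40.4 ± 22.9 and 9.1 ± 4.27 TPM with NMN. Col3a1, Car9, Methig1, Ddn, Kcne1, Sec14l3 and Ccdc62 completed the list, with log2 changes from 0.61 to 1.20 and adjusted p from 0.0735 to 0.11. All 10 of these lower genes had means with NMN between those of cisplatin and PBS.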

How the data were processed

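Whole-kidney RNA libraries of 16 samples in 4 groups were measured, and each value is TPM, a length-scaled abundance that the authors deposited with 2 decimals in 1 table of 23982 entries. The tools named in the submitters' processing notes are DESeq2 1.10.1, HTSeq 0.6.1, STAR 2.4.1d and Trim Galore, and the builds GRCm38 and mm10, with no role or order. Annotation, gene lengths and strandedness were not given in the sources used here. Entries that share a symbol (94) were summed, 1 entry without a symbol was kept under its identifier, and 26 identifiers had been turned into calendar dates.

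Each value was taken to log2(TPM + 1), and a fold change on that scale understates the change of low genes. Genes with at least 1 TPM in 4 or more libraries (12960) entered 1 limma fit (3.58.1 in R 4.3.3, trend and robust) of all 4 groups with 12 residual degrees of freedom. Adjusted p-values are Benjamini-Hochberg over those genes, with a call under 0.05. The 2 shares of TPM were compared by an exact two-sided permutation test in Python 3.11.15 with scipy 1.17.1. The fit was tested on simulated data. TPM keeps no depth, so no counting interval is given.

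The comparison, its 69 gene lists and the rules were chosen with earlier results of these data known. Named genes are the 25 largest rises and falls by log2 change without overlap and the 15 largest by TPM (the higher mean being 5 TPM or more; predicted genes, pseudogenes and genes of the mitochondrial genome left out), up to 4 members of a list by adjusted p with the members that went against it, up to 8 above or below both other groups, 10 not called among the largest cisplatin changes in each direction, and 26 genes of interest. Outside these, Adipoq, Arntl, Atf3, C3, Col15a1, COX1, Cxcl1, Egr1, Hk2, Isg15, Lama1, Lama2, Mfn1, Nnt, Parp9, Parp12, Pfkp, Slc25a51, Slc29a1, Slc29a3 and Tnfaip3 were named after their values were seen. Some genes that the rule names are not reported here. Alternatives were another scaling, filter, pseudocount, weighting, sample set and block, leaving out each library, and, added after seeing the data, leaving out cisplatin libraries 1 and 3. Promoter sequences are those of RefSeq (GRCm38.p6) and gene positions those of GENCODE vM21, in which 97.3% of symbols matched 1 gene.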

Additional observations from a re-analysis of the deposited data

Results flagged for a closer look

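Of 194 sets of 4 libraries looked at (genes of interest and summed lists, with cisplatin or with NMN), 11 had 1 library so far from the others that its gap to the nearest one, divided by the whole range, exceeded Dixon's 95% critical value; chance gives about 1 in 20. Cisplatin library 1 was that library in 7 list sums and for 1 gene. It was high in the summed TPM of podocyte genes (157 against 48.4 to 62.9, ratio 0.867), endothelial genes (259 against 151 to 163, ratio 0.89), genes of fibroblasts, pericytes and renin cells (147 against 65.4 to 73.1, ratio 0.905), collagens and matrix (909 against 670 to 700, ratio 0.874), the EGF receptor family and its ligands (347 against 292 to 299, ratio 0.869) and p53 targets (3629 against 3259 to 3293, ratio 0.909). It was low in genes typical of liver (297 against 509 to 541, ratio 0.866). Nmrk2, the muscle-enriched NR kinase, was listed at 0.2 TPM in that library and at 0 in the other 3, a ratio of 1. Cisplatin library 3 was low in sirtuins (137 against 173 to 180, ratio 0.839). NMN library 1 was low in the sum of PARP genes (147 against 177 to 180, ratio 0.931) and of glycolysis and gluconeogenesis (9004 against 10653 to 10968, ratio 0.84). These sums share genes and libraries and are not independent.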

How the results depend on the processing

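The count of genes changed was 5223 to 6556 over all alternatives, 1611 to 2888 higher and 3047 to 4534 lower, each within 1.5 times the reported one, and without 1 library it was 5663 to 6196. The difference in the share of mitochondrial mRNAs was 8.63 to 10.5 points without 1 library and that of ribosomal protein genes -8.25 to -7.47; 3 against 4 samples cannot give an exact permutation p under 0.0571, so those tests say nothing about stability. Of 395 named genes that were called, 371 were tested in every alternative and 332 of these kept the call in each. Of the 395, 30 lost it without 1 library, 17 with median-of-ratios scaling and 33 without cisplatin libraries 1 and 3, which leaves fewer samples. COX1, not called, was called lower at -0.54 with quantile scaling; the cause was not tested. Of the list counts, 24 moved by over 1.5 times with median-of-ratios scaling, 19 with quantile scaling and 11 without cisplatin libraries 1 and 3. With the replicate number as a block 6507 genes changed, 2043 higher and 4464 lower. Same-numbered libraries had correlations of their deviations from the group means of -0.06, -0.1, 0.066 and 0.105 (cisplatin 1 was closer to NMN 2, at 0.142), so not every sample correlated best with its own number and the numbers were not taken as pairs. TPM carries no read depth, so the counting error of low genes is unknown.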

Other observations

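Single NMN libraries carried much of the mean in Mfn1 and Per2. Mfn1, which fuses the outer membranes of mitochondria, measured 125, 47.0, 24.9 and 74.1 TPM in NMN libraries 1 to 4 and 21.3, 31.1, 18.2 and 20.7 TPM in cisplatin libraries 1 to 4, with PBS between 20.5 and 57.8 TPM (limma, adjusted p = 0.0242, and 0.0808 without NMN library 1). Its call was lost in 5 of the limma fits without 1 library (adjusted p 0.0516 to 0.0808). Per2 of the circadian clock was highest in NMN library 2, at 57.6 TPM against 6.82 TPM in library 1, and the highest PBS library had 15.7 TPM. Over all tested genes NMN library 2 was the highest of the NMN libraries for 29.6% and NMN library 1 the lowest for 44.4%, and of 18 endothelial genes library 2 was the highest for 17 and library 1 the lowest for 14.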
